A study of Mus musculus with 2 samples.

Results

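Thrombospondins and other proteins by which astrocytes act on synapses were examined in astrocytes cultured from the dentate gyrus (DG) of wildtype (WT) mice and of mice lacking β-arr1 (KO). The genes were chosen by name, and comprised the thrombospondins Thbs1, Thbs2, Thbs3 and Thbs4, the SPARC family genes Sparc and Sparcl1, and the engulfment receptors Megf10 and Mertk. These are 8 of 16302 genes listed in at least one of the deposited tables. All 8 were listed, and 7 of them reached 1 FPKM in at least one library (sequenced fragments scaled by the authors' software for transcript length and library size).

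The WT group was 1 library from wildtype C57BL/6 mice, and the KO group was 1 library from C57BL/6 mice with a knockout of β-arr1, the β-arrestin encoded by Arrb1. The knockout was not restricted to astrocytes, and no agent was added. The cells of both groups came from the adult DG, were grown in medium with serum and were shaken to detach proliferating cells, oligodendrocyte progenitors and neurons. The labels give neither the sex nor the number of mice. A figure legend of the study, which covers RNA-seq and qRT-PCR together, speaks of several mice in each group, without saying whether they were pooled into the library. With 1 library per genotype there was no spread between replicates and no test of genotype, so every difference below is between these 2 libraries, and fewer cells of a type cannot be told apart from less RNA per cell. A level given for WT astrocytes or for KO is that of the whole culture, with any other cell types it held.

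Thrombospondins are large secreted glycoproteins of the extracellular matrix. Released by astrocytes, they promote the formation of excitatory synapses through the calcium channel subunit α2δ-1 on neurons. Hevin, the product of Sparcl1, bridges adhesion proteins across the synaptic cleft and promotes synapse formation, and its relative SPARC, the product of Sparc, opposes hevin. Astrocytes also remove synapses, and MEGF10 and MERTK are the receptors by which they take up synaptic material.

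The bases before the annotated starts of Thbs1, Thbs2, Sparc and Sparcl1 are shown because within each related pair one gene was higher and the other lower in β-arr1 KO. They were read from NCBIM37 (mm9), the build of the deposited tables, and cover the 200 bases before the start of each gene in GENCODE vM1, written 5′ to 3′ on the strand of the gene. Capitals mark matches on either strand to any of 5 motifs, namely TATAAA for the TATA box, CCAAT for the CCAAT box, GGGCGG for the GC box, TGANTCA for the AP-1 site and AGGTCA for one repeat of a nuclear receptor site. The intervals are chr2:117937412-117937611 on the plus strand for Thbs1, chr17:14831270-14831469 on the minus strand for Thbs2, chr11:55233583-55233782 on the minus strand for Sparc and chr5:104543108-104543307 on the minus strand for Sparcl1.
Thbs1: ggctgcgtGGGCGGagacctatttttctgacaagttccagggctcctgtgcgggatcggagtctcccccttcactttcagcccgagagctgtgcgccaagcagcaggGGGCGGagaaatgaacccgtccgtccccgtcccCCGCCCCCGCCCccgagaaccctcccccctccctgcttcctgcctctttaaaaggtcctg
Thbs2: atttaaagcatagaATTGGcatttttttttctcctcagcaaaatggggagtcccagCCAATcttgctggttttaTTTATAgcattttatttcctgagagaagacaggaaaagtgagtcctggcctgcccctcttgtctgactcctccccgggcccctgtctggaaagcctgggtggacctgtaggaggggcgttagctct
Sparc: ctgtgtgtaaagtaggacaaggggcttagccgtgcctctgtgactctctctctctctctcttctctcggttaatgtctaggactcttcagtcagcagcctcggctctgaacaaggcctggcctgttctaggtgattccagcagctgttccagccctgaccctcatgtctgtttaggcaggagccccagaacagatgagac
Sparcl1: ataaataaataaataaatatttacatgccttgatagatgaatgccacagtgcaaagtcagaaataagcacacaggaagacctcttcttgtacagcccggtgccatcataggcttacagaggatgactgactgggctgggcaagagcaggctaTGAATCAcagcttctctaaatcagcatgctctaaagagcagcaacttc

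The stretch before Thbs1 held 4 GC box matches and was 65.0% G and C. The stretch before Thbs2 held a pair of CCAAT matches and 1 TATA match and was 48.5% G and C. Before Sparcl1, 1 AP-1 match began 48 bases before the start, in a stretch of 42.5% G and C. No match to the 5 motifs lay before Sparc, and the nuclear receptor repeat was in none of these stretches. Among 22375 stretches of the same length before protein-coding genes, 38.0% held a GC box match, 30.6% a CCAAT match, 10.1% a TATA match, 4.80% an AP-1 match and 10.0% the receptor repeat, and the median G and C content was 55.5%. These matches are a description of the sequence, and no binding was measured.

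Arrb1 itself was at 7.62 FPKM (WT) and 2.72 FPKM (KO), a ratio of 0.358. The values lay on steps of single fragments at the lowest levels, from which 9.52 M and 9.80 M mapped fragments were estimated for WT and KO. The libraries were on one scale, with a median log2 ratio of 0.02 over all genes at 1 FPKM or more in at least one library and listed in both. Transcripts of 4 Y-linked genes (Ddx3y, Kdm5d, Uty and Eif2s3y) summed to 8.44 FPKM in KO and were not listed in WT, so that genotype and the sex of the mice cannot be told apart here.

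Of the 7 genes at 1 FPKM or more, Sparcl1 and Megf10 had a ratio of β-arr1 KO vs. WT above 3/2, Thbs2 had one below 2/3, and Thbs1, Thbs3, Sparc and Mertk lay between these limits, which the study used. Among all 12646 genes at this level, 17.8% were past the limits, 9.56% above and 8.28% below. Genes listed in one library only were counted as past a limit. The study applied the limits to its own set of genes, and its share of changed genes was lower. All 7 also reached 5 FPKM in at least one library, where 12.5% of 9397 genes were past the limits (6.81% above, 5.74% below), and 1 FPKM in both libraries, where 11.8% of 11622 genes were (6.45% above, 5.35% below). The median ratio of the 7 genes was 1.34. That of all genes at 1 FPKM or more in at least one library and listed in both was 1.01. With 7 genes chosen by name, the count of 3 describes these genes only.

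**Figure D1:**
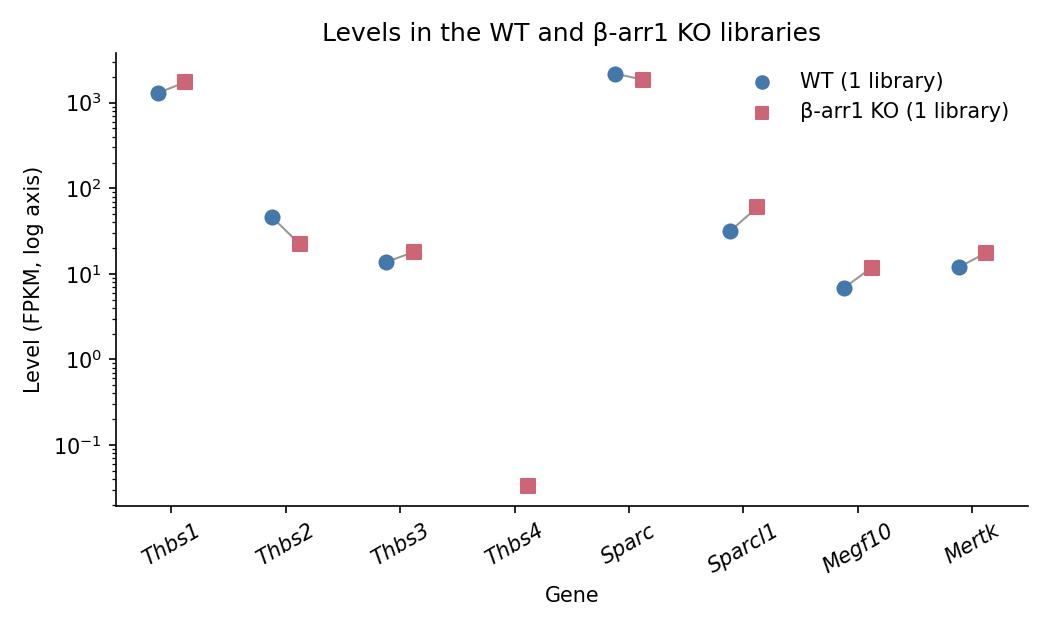
Level of each gene in FPKM on a log axis, with a circle for the WT library and a square for the β-arr1 KO library (1 library each, no error bars). Sparc and Thbs1 lie above 1000 FPKM in both, Thbs4 was listed at 0.0336 FPKM in KO only, and the others lie between 6.89 and 59.9 FPKM.

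Thbs1 and Thbs2, the closest relatives among the thrombospondins, differed in opposite directions. Thbs1 (NCBI gene 21825), whose product is also known as an inhibitor of blood vessel growth and an activator of latent TGF-β, was at 1294 FPKM in WT astrocytes and 1732 in KO. It was among the most abundant transcripts of these cultures, at rank 18 in WT and rank 14 in KO. Its ratio of 1.34 (log2 ratio 0.42) had a 95% interval of 1.32 to 1.35, which rests on an estimated 69970 and 96352 fragments. Such intervals apply the Clopper-Pearson method to estimated fragments and hold counting error only. They are therefore narrow for an abundant gene and do not measure how mice or cultures vary. The difference of 437 FPKM was the largest among the 8 genes, although the ratio stayed below 3/2.

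Thbs2 (NCBI gene 21826), which encodes a matrix protein that affects collagen fibril assembly, was at 46.1 FPKM in WT astrocytes and 22.3 in KO. The ratio was 0.483 (interval, 0.451 to 0.517, from an estimated 2526 and 1255 fragments) and the log2 ratio -1.05. The whole interval lay below 2/3. In the order of all levels, Thbs2 moved from rank 1515 in WT to rank 3394 in KO. Of the 7 genes it lay farthest from a ratio of 1 on the log2 scale.

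Thbs3 (NCBI gene 21827), a thrombospondin of the pentameric subgroup, was at 13.8 FPKM in WT astrocytes and 18.0 in KO. Its ratio of 1.30 lay within the limits, with an interval of 1.16 to 1.46 that left out 1 and did not reach 3/2. In GENCODE vM1 the gene overlaps Mtx1, which encodes a mitochondrial import protein and was listed at 23.6 FPKM in WT astrocytes and 22.6 in KO. The deposited Thbs3 row overlapped no other row. Whether the libraries kept the strand is not given in the sources used here, so fragments in the overlap cannot be assigned to one of these genes with certainty.

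Thbs4 (NCBI gene 21828), the fourth thrombospondin, was listed in the KO table only, at 0.0336 FPKM. That value corresponds to an estimated 1 fragment. No ratio was formed, and at this depth a difference in Thbs4 was not detectable.

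In each library, Thbs1 made up nearly all of the thrombospondin transcripts. The 4 genes summed to 1354 FPKM in WT astrocytes and 1772 in KO, of which Thbs1 was 95.6% and 97.7%. The share of Thbs2 was 3.41% in WT and 1.26% in KO, and that of Thbs3 1.02% and 1.01%. The level of Thbs1 was 28.1 times that of Thbs2 in the WT library and 77.8 times in the KO library. The level of Thbs2 was 3.34 times that of Thbs3 in WT and 1.24 times in KO. These ratios between genes of one library do not depend on how the libraries are scaled to each other.

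The genes lie apart from each other in the genome. In GENCODE vM1 on NCBIM37, Thbs1 lies on chromosome 2 from 117937612 to 117952869 (plus strand), Thbs2 on chromosome 17 from 14802507 to 14831269 (minus strand), Thbs3 on chromosome 3 from 89019102 to 89030759 (plus strand) and Thbs4 on chromosome 13 from 93521545 to 93564773 (minus strand). Their longest transcripts have 21 or 22 exons. With only the longest protein-coding transcript of each gene compared, the longest identical stretch was 26 bases, shared by Thbs1 and Thbs2. The deposited rows of Thbs2 and Thbs3 did not differ in their bounds between WT and KO, whereas the 5′ end of the Thbs1 row lay 36 bases farther out in KO.

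**Figure D2:**
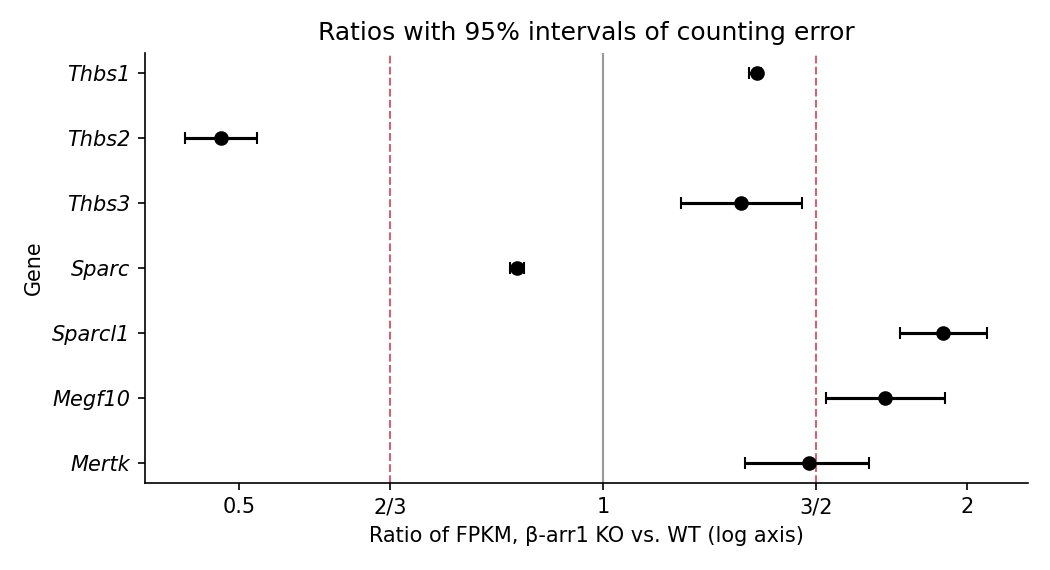
Ratio of FPKM, β-arr1 KO vs. WT, on a log axis for the 7 genes listed in both tables, with 95% intervals of counting error (bars) and the limits of 2/3 and 3/2 (dashed lines). The intervals of Thbs2, Sparcl1 and Megf10 lie wholly past a limit, and that of Mertk, 1.31 to 1.66, spans the upper one.

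Sparc and Sparcl1, whose products act against each other at synapses, also differed in opposite directions. Sparc (NCBI gene 20692), on chromosome 11 from 55208002 to 55233582 (minus strand), encodes a collagen-binding matrix protein and was at 2188 FPKM in WT astrocytes and 1857 in KO. It held rank 13 in both libraries. Its ratio of 0.849 (interval, 0.837 to 0.861) lay within the limits. The 5′ end of the Sparc row lay 97 bases farther out in KO than in WT, inside the bases printed above. The interval takes 1 length for both libraries and does not cover that difference.

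Sparcl1 (NCBI gene 13602), on chromosome 5 from 104508130 to 104543107 (minus strand), was at 31.3 FPKM in WT astrocytes and 59.9 in KO. The ratio was 1.91 (interval, 1.76 to 2.08, from an estimated 877 and 1729 fragments) and the log2 ratio 0.94. It was the highest ratio of the 7 genes, and its whole interval lay above 3/2. The locus bounds were the same in both tables, GENCODE vM1 annotates 1 transcript with 11 exons, and no other listed row overlapped it. The annotated gene Gm16990 overlaps Sparcl1 and was not analysed here. Sparc was 69.9 times as high as Sparcl1 in the WT library and 31.0 times in the KO library. With only the longest protein-coding transcript of each gene compared, the longest identical stretch of the pair was 14 bases.

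Both engulfment receptors were higher in β-arr1 KO. Megf10 (NCBI gene 70417), which encodes a receptor with EGF-like repeats used by astrocytes to engulf synapses and dying cells, lies on chromosome 18 from 57292744 to 57457121 (plus strand). It was at 6.89 FPKM in WT astrocytes and 11.8 in KO, a ratio of 1.71 (interval, 1.53 to 1.92, from an estimated 482 and 848 fragments) and a log2 ratio of 0.77. The locus bounds were the same in both tables.

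Mertk (NCBI gene 17289), which encodes a receptor tyrosine kinase that recognises phosphatidylserine through bridging ligands, lies on chromosome 2 from 128524692 to 128628630 (plus strand). It was at 11.9 FPKM in WT astrocytes and 17.6 in KO, a ratio of 1.48 that lay just within the upper limit. Its interval of 1.31 to 1.66 left out 1 and included 3/2. The 5′ end of the Mertk row lay 61 bases farther out in KO, whereas its 3′ end lay farther out in WT (128628870) than in KO (128628747). The interval takes 1 length for both libraries and does not cover these differences. The annotated genes Gm14011 and SNORA25 overlap Mertk and were not analysed here. Mertk was 1.73 times as high as Megf10 in the WT library and 1.50 times in the KO library.

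In the order of levels, Sparc and Thbs1 came first in both libraries. Thbs2 was the third in WT, followed by Sparcl1, Thbs3, Mertk and Megf10. In KO the third place was held by Sparcl1, and Thbs2 came next, followed by Thbs3, Mertk and Megf10, with 18.0 and 17.6 FPKM for Thbs3 and Mertk. From an estimated 680 and 713 fragments, the order of these neighbours is not settled. Across the 8 genes, levels spanned from the single fragment of Thbs4 to over 1000 FPKM.

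**Figure D3:**
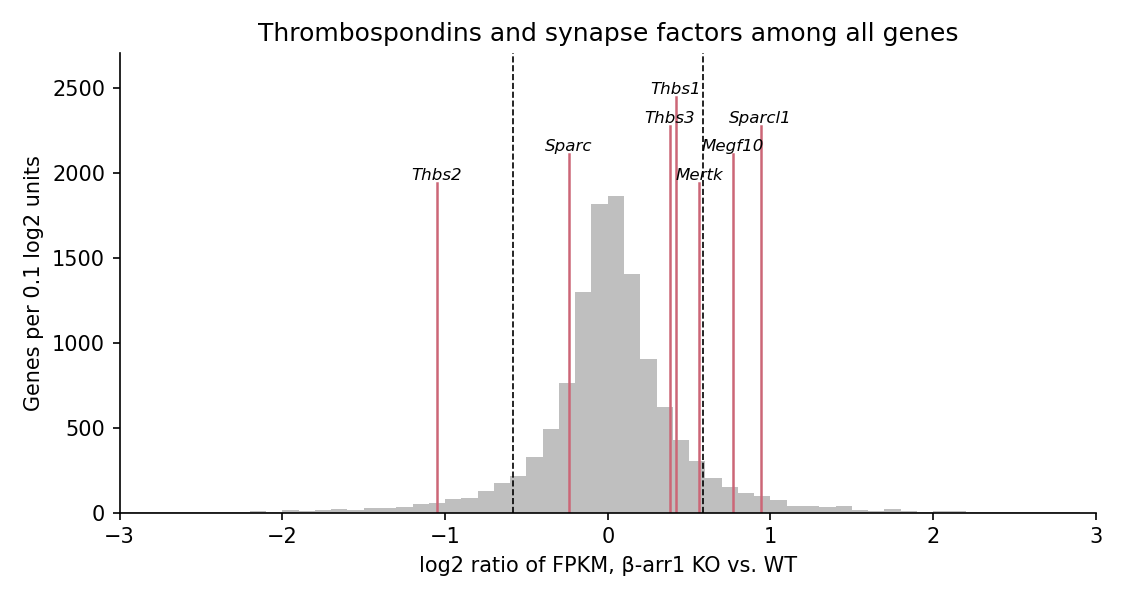
Number of genes per 0.1 log2 units of the ratio β-arr1 KO vs. WT (grey bars; genes at 1 FPKM or more in a library and listed in both, those beyond 3 in either direction not drawn), with the 7 genes as labelled lines and the limits 2/3 and 3/2 dashed. Thbs2 lies at -1.05, and Mertk, Megf10 and Sparcl1 lie at 0.56, 0.77 and 0.94, around and past the upper limit.

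Other genes of these families and pathways were taken from 4 lists of 56 genes in all, 55 of which reached 1 FPKM in at least one library. Of these, 4 were above 3/2, 4 were below 2/3 and 47 lay within the limits, and their median log2 ratio was -0.07. The 8 of 55 genes past the limits are a share near the 17.8% of all genes.

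Among 7 further thrombospondin and SPARC relatives, only Spock1 was past a limit. Spock1, which encodes the proteoglycan testican, was at 1.68 FPKM in WT astrocytes and 2.95 in KO, a ratio of 1.76 (interval, 1.29 to 2.41, from an estimated 67 and 120 fragments). Fstl1, a secreted protein related to SPARC, had the highest level of this list and was at 305 FPKM in WT astrocytes and 236 in KO, a ratio of 0.776. Comp, the fifth thrombospondin, was at 5.94 FPKM in WT astrocytes and 6.59 in KO, with an interval of 0.869 to 1.42 that included 1.

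Of 14 genes for receptors and partners of thrombospondins, 13 reached 1 FPKM. Cd36, a scavenger receptor through which thrombospondin 1 acts on endothelial cells, was at 13.2 FPKM in WT astrocytes and 5.23 in KO, a ratio of 0.397 (interval, 0.331 to 0.474). Cacna2d3, a relative of the gene for α2δ-1, was at 1.86 and 0.897 FPKM, a ratio of 0.482 from an estimated 62 and 31 fragments. Itga3, an integrin subunit, was at 86.8 FPKM in WT astrocytes and 134 in KO, a ratio of 1.54 (interval, 1.48 to 1.61) that was above 3/2. The other 10 lay within the limits. They included Cacna2d1, which encodes α2δ-1, at 13.3 and 15.6 FPKM (ratio 1.18), the thrombospondin receptor Cd47 at a ratio of 0.855, Itgb1, the highest of the list at 1053 FPKM in WT astrocytes and 1019.7 in KO, and the clearance receptor Lrp1 at 183 and 156 FPKM (ratio 0.851). Cacna2d2 stayed below 1 FPKM in both libraries.

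Other factors by which astrocytes act on synapses comprised 12 genes, of which 1 was above and 2 below the limits. Nrcam, a cell adhesion gene of astrocytes and neurons, was at 28.8 FPKM in WT astrocytes and 46.7 in KO, a ratio of 1.62 (interval, 1.53 to 1.71). Chrdl1, a secreted antagonist of BMPs that promotes synapse maturation, had the lowest ratio of the 55 genes, 0.304 (interval, 0.226 to 0.403), with 5.56 FPKM in WT astrocytes and 1.69 in KO. Mdk, the growth factor midkine, was at 8.78 and 5.68 FPKM, a ratio of 0.647 with an interval of 0.442 to 0.941. The glypicans Gpc4 and Gpc6, which recruit AMPA receptors to synapses, lay within the limits at ratios of 1.15 and 0.887. Tgfb3 had the highest WT level of this list, with 103 FPKM in WT astrocytes and 84.3 in KO.

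In the engulfment list of 23 genes, Megf11 alone was past a limit. Megf11, the closest relative of Megf10, was at 3.61 FPKM in WT astrocytes and 6.27 in KO, and its ratio of 1.74 (interval, 1.47 to 2.05) lay close to the 1.71 of Megf10. The ligands that bridge MERTK to phosphatidylserine were lower in KO within the limits, Gas6 at 218 and 171 FPKM (ratio 0.785) and Pros1 at 42.2 and 35.9 FPKM (ratio 0.852). Of the sister receptors of MERTK, Axl was at 108 FPKM in WT astrocytes and 127 in KO (ratio 1.17) and Tyro3 at 6.89 and 6.58 FPKM. Axl was 9.10 times as high as Mertk in WT and 7.19 times in KO. C1qa, C1qb and C1qc, whose product C1q tags synapses and is a ligand of MEGF10, had ratios of 0.738, 0.793 and 0.748. The highest level of the list was that of Anxa1, at 615 FPKM in WT astrocytes and 557 in KO.

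**Figure D4:**
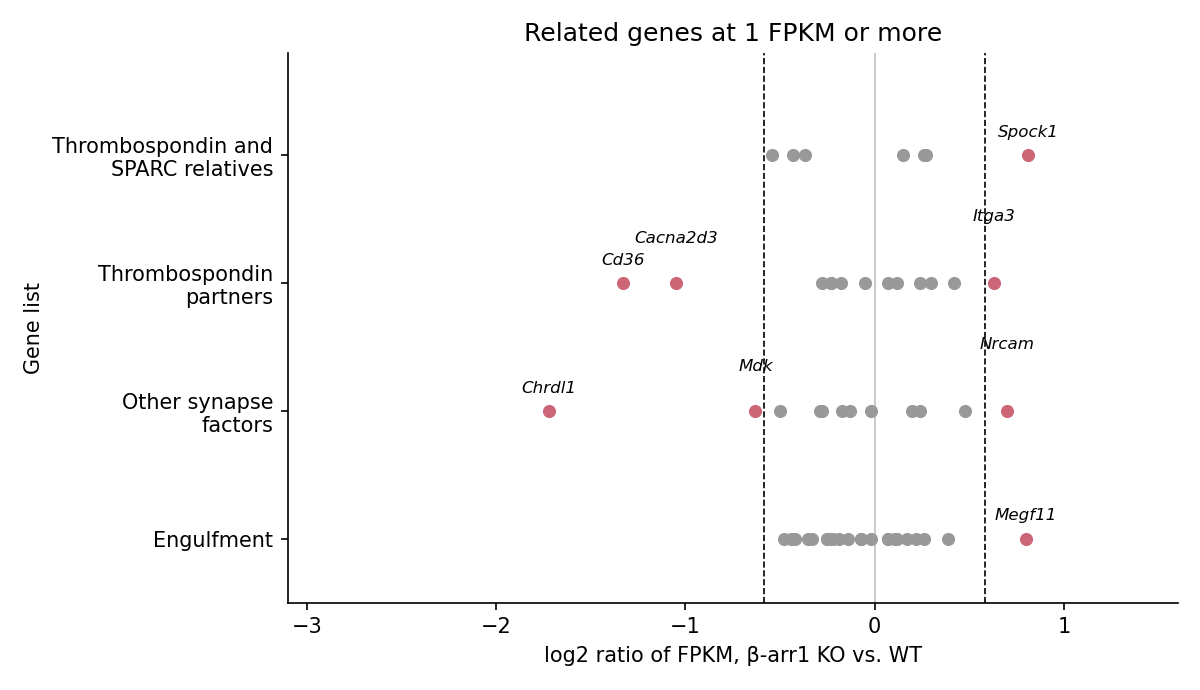
Log2 ratio of FPKM, β-arr1 KO vs. WT, of the related genes at 1 FPKM or more, 1 point per gene and 1 row per list, with the limits 2/3 and 3/2 dashed and genes past them in red with their names. Megf11 is the single named gene in the engulfment row, and Chrdl1 lies farthest to the left at -1.72.

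Some markers of the cell types that such a culture can hold differed in the same direction as some of these genes, and others did not. Of 7 fibroblast and pericyte markers with a value, 6 reached 1 FPKM, of which 4 were below 2/3 and 1 was above 3/2. The summed level of the 7 was 553 FPKM in the WT library and 316 in the KO library. Col1a1, at 420.5 and 237 FPKM (ratio 0.564), Col1a2, at 92.3 and 34.3 FPKM (ratio 0.371), and Dcn, at 6.11 and 0.831 FPKM (ratio 0.136), were lower in KO, as Thbs2 was. Rgs5 had a ratio of 0.615. Pdgfra was higher, with a ratio of 1.93, and Cspg4 lay within the limits at 1.41. Oligodendrocyte progenitors express Pdgfra and Cspg4 as well. Lum was listed in WT only at 0.660 FPKM, and Pdgfrb was not analysed here. The part of fibroblasts and pericytes in the lower level of Thbs2 was not tested.

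Of 10 astrocyte markers, 9 reached 1 FPKM, with 4 above 3/2 and none below 2/3, and their sum was 383 FPKM in WT astrocytes and 405 in KO. The water channel gene Aqp4 (7.05 and 13.5 FPKM, ratio 1.92), S100b (ratio 1.77), Aldoc (ratio 1.60) and the glutamate transporter gene Slc1a2 (ratio 1.58) were above 3/2, as were Sparcl1 and Megf10. Gfap had a ratio of 1.02, Glul 0.742 and Gja1 0.862. Gjb6 was listed in KO only, from an estimated 1 fragment. Oligodendrocyte lineage markers summed to 53.7 FPKM in the WT library and 82.5 in the KO library, with 3 of 4 above 3/2, namely Olig1 (ratio 1.71), Olig2 (ratio 2.11) and Sox10 (0.907 and 1.82 FPKM). The myelin gene Mbp had a ratio of 0.831, and the myelin gene Mog was listed in KO only, from 1 fragment. The part of either cell type in the higher levels of Sparcl1 and Megf10 was not tested.

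Most microglia and macrophage markers went the other way from Mertk, which such cells express as well. All 10 were listed, 9 of them lower in KO, and their sum was 822 FPKM in the WT library and 616 in the KO library. The astrocyte markers summed to 383 and 405 FPKM. Sums over different genes do not measure shares of cells. Cd68 was below 2/3 (ratio 0.645), and Cx3cr1, the exception, had a ratio of 1.05. The C1q genes and Cd36, which such cells express, were lower as well, and the part of these cells in any of these levels was not tested. Endothelial markers were mixed, with Pecam1 (ratio 1.72) and Flt1 (ratio 1.71) above 3/2 and Cdh5 (ratio 0.507) below 2/3. Kdr (ratio 1.44) was higher within the limits, and Cldn5 had a ratio of 0.672. The median ratio was 1.44 over the 5 markers at 1 FPKM or more. The sum of all 6 was 44.9 FPKM in the WT library, 31.8 of it Cdh5, and 35.6 in the KO library, 16.1 of it Cdh5. The 6 neuronal markers summed to 0.639 FPKM in the WT library and 0.884 in the KO library, and none reached 1 FPKM.

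**Figure D5:**
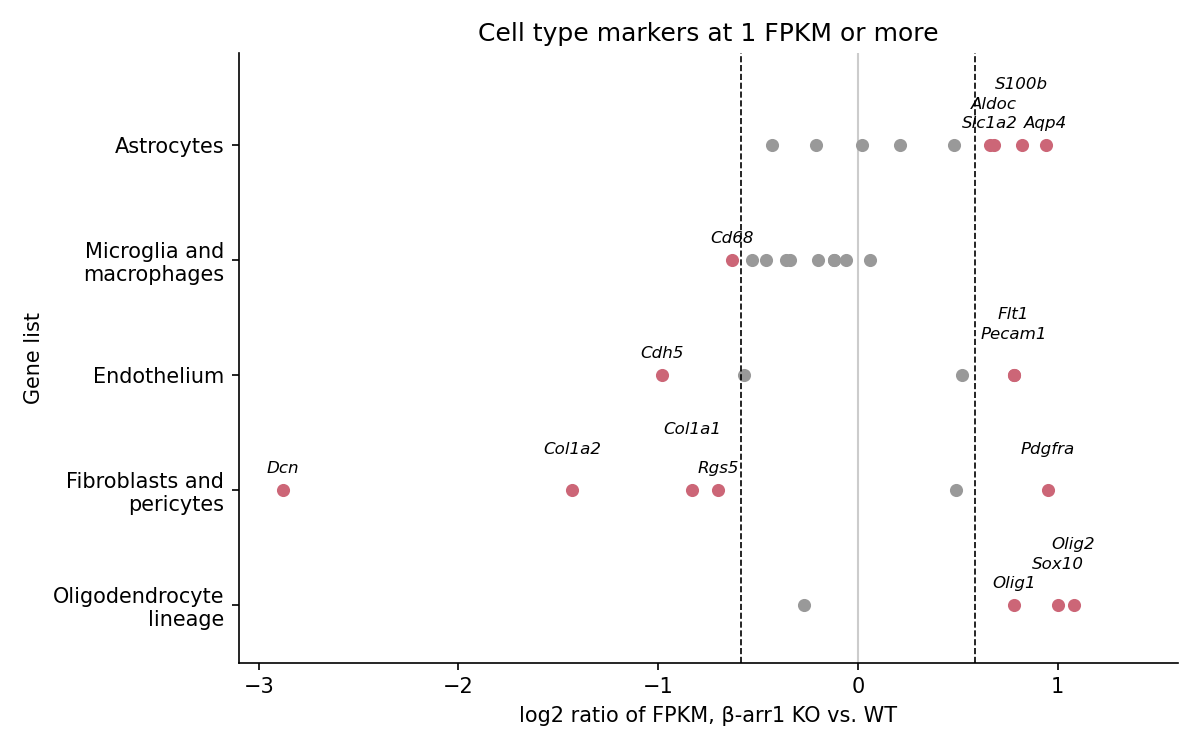
Log2 ratio of FPKM, β-arr1 KO vs. WT, of the cell type markers at 1 FPKM or more, 1 point per gene and 1 row per cell type, with the limits 2/3 and 3/2 dashed and genes past them in red with their names. Markers past a limit lie on the right for astrocytes and the oligodendrocyte lineage, and 4 of 5 lie on the left for fibroblasts and pericytes.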

How the data were processed

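RNA of cultured DG astrocytes was sequenced in 1 WT and 1 β-arr1 KO library. According to the submitters' processing notes and the study's methods, the authors aligned read pairs to mm9 with TopHat 1.4.0, estimated levels with Cufflinks (version not given in the sources used here) and deposited FPKM values per gene. Tables were joined by gene symbol, the highest row kept where a symbol repeated (55 in WT, 69 in KO), and a gene listed in one table was given 0 in the other. The ratio of FPKM, β-arr1 KO vs. WT, was formed without a pseudocount, and limits of 3/2 and 2/3 were applied to genes at 1 FPKM or more in at least one library. No p-value was computed.

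Depth was estimated from genes with 1 annotated transcript over 1000 bases and under 0.15 FPKM (416 in WT, 435 in KO), of which 69.2% and 69.7% lay within 5% of a step of 1 to 3 fragments after subtracting 170 bases from the length. Estimated fragments over genes with an annotated length summed to 9.26 M in WT and 9.53 M in KO. Intervals (95%, Clopper-Pearson on estimated fragments, centred on the FPKM ratio) used the longest GENCODE vM1 transcript as 1 length for both libraries. They cover counting error only, not error in the length or the estimated depth. A shorter expressed transcript would make them too narrow. The depth estimate, the ratio and the call past the limits were tested on simulated counts, and the intervals were not. Those counts followed the same model of length and depth that the depth estimate assumes.

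The members and lists were chosen with earlier results of these data known. Of the listed genes, 2 are not reported here and were left out of the counts of their lists. Named were all members, each related gene past a limit, the highest WT level of each list, related genes missing from a table, and genes overlapping a member. Further related genes and markers within the limits were named after their values were seen. Python 3.11.15 with numpy 2.4.6, pandas 2.3.3, scipy 1.17.1, pysam 0.24.0 and matplotlib 3.10.9 was used.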

Additional observations from a re-analysis of the deposited data

How the results depend on the processing

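The 7 ratios were recomputed with 0.1 or 1 FPKM added, with KO rescaled by its upper quartile, its total or the median ratio, and with rows of a shared symbol or of overlapping loci summed. Under these 7 alternatives each ratio stayed within its counting interval and on its side of the limits. Most of them could move a ratio only a little. The factors on KO were 1.0030 (total), 0.9878 (median ratio) and 0.9883 (upper quartile). Both ways of summing rows left all 7 ratios as reported. Thbs2 lay between 0.477 and 0.494, Sparcl1 between 1.89 and 1.92, Megf10 between 1.62 and 1.72 and Mertk between 1.44 and 1.48. With limits of 2 and 1/2, 1 member (Thbs2) was past them, as were 3 related genes and 1163 of all genes. The number of all genes past 3/2 or 2/3 was 4830 without a minimum level, 1372 with 1 FPKM in both libraries, 1179 with 5 FPKM in at least one library and 1014 with the same locus bounds in both tables, and the number of members past the limits was 4, 3, 3 and 3. The fourth was Thbs4, which rests on 1 fragment. No paired analysis was possible because each genotype has 1 library, and no replicate could be left out. The depth limits Thbs4, and the lack of replicates limits all ratios.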

Other observations

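Terms of the deposited gene annotation that several members carry were counted after the values had been seen. Among genes annotated to the extracellular region, which include Thbs2, Thbs3, Thbs4, Sparc and Sparcl1, 207 of 682 at 1 FPKM or more were past the limits (30.4%, beside 17.8% of all genes), 96 above and 111 below. For calcium ion binding, carried by the same 5 genes, it was 79 of 328 (24.1%), 53 above and 26 below. For heparin binding, carried by the 4 thrombospondins, it was 19 of 76 (25.0%). For phagocytosis, carried by Megf10 and Mertk, it was 7 of 28 (25.0%), with 3 above and 4 below. The genes of a term are not independent of each other, and no test was made.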
